A study of Xenopus tropicalis with 132 samples.

Results

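The genes described here encode chromatin regulators, the proteins that write or erase marks on histones and DNA or that move and evict nucleosomes. They were chosen by symbol: every identifier in the RNA tables whose symbol begins with kdm, kmt, hdac, dnmt, tet, chd, ezh or setd and a number, with arid and a number, or with smarc. This rule found 73 of 26550 identifiers, and 17 of them carry "-like" in the deposited name. By role they comprised 17 histone lysine methyltransferase genes (kmt, setd and ezh), 14 demethylase genes (kdm), 10 deacetylase genes (hdac), 13 genes of SWI/SNF subunits and other smarc proteins (smarc, arid1 and arid2), 10 CHD remodeler genes, 6 other ARID genes and 3 genes of DNA methylation and its removal (dnmt1, tet2 and tet3). A symbol rule does not test activity, and a member such as setd3, known in mammals to methylate actin, was kept because its name matches. Several well-known regulators (dnmt3a, dnmt3b, dnmt3l, tet1, kdm6b and smarcd3) are not listed under those symbols in these tables and were not analysed here.

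The study asked how transcription factors acting alone and in combination diversify cells of the early Xenopus tropicalis embryo. Its RNA part used animal caps, the tissue at the top of the blastula that becomes epidermis if left alone. At stage 10.5, an early gastrula stage, total RNA was sequenced from 8 groups of caps with 2 libraries each, 16 in all. 5 groups had received mRNA of a single factor (Lhx8, Otx2, Irx3, Eomes or Foxb1) and 2 groups mRNA of a pair, Foxb1 with Eomes (written Foxb1+Eomes) and Irx3 with Otx2 (written Irx3+Otx2). The last group, named WI and not explained in the labels, was used as the comparison group. Single cells came from 2 kinds of stage 10.5 explant named AC and BL, as 2 libraries of 25 cells each, 100 cells in all. The submitters name animal caps and dorsal marginal zones as the explants used, without saying what BL means, so the name is used as it stands. Neither kind of label says whether libraries of a group came from separate clutches or injections, so p-values measure only the spread between these libraries. In a cap sample, fewer cells of a type and less RNA per cell cannot be told apart.

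Chromatin regulators work in families of related proteins with opposing activities. Ezh2 places the repressive mark on lysine 27 of histone H3 and Kdm6a removes it. Kmt2 and Setd1 proteins methylate lysine 4 of H3, Kdm1 and Kdm5 proteins remove that methylation, and Hdac1 and Hdac2 strip acetyl groups as parts of several repressor complexes. SWI/SNF complexes use the motor Smarca4 or Smarca2 to slide or eject nucleosomes, Dnmt1 copies DNA methylation to new strands, and Tet proteins oxidise it. The frog egg is loaded with maternal RNA for many of these proteins, since the first cell cycles run with little transcription.

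The bulk libraries held between 3234597 and 9218397 estimated counts, of which the 73 members took 1.11% to 1.71%. The injected factor was listed far above WI in each group: foxb1 stood at 1.95 and 1.77 TPM (a level scaled by transcript length and library) in WI and at 57.8 and 112 TPM in the 2 Foxb1 libraries, and eomes at 1.83 and 2.60 TPM in WI and at 727 and 342 TPM in Eomes. otx2 was at 10.8 and 13.01 TPM in WI and at 318 and 284 TPM in Otx2, irx3 at 0.698 and 2.49 TPM in WI and at 782 and 105 TPM in Irx3, and lhx8 at 0.773 and 0.634 TPM in WI and at 644 and 259 TPM in Lhx8. Summed over 14 ectoderm markers, WI stood at 3593 and 2326 TPM, and over 9 neural plate markers at 489 and 777 TPM. The 9 mesoderm markers summed to 43.1 and 45.6 TPM. Cap identity was taken from the labels and was not tested. The deposited library names carry running numbers from 1 to 16 whose meaning is not stated. Both Eomes libraries, both Otx2 libraries and the second Irx3+Otx2 library hold numbers 12 to 16, while the WI libraries hold 1 and 11. In TPM, libraries 12 to 16 stood apart from the rest. The summed level of the 73 members was 3171 to 4252 TPM there and 2394 to 3109.7 TPM in the other 11. In TPM the median log2 difference from WI over all genes tested was also 0.66 in Eomes and 0.59 in Otx2. The members' share of counts overlapped, at 1.39% in Eomes 1 and 1.46% in Otx2 1 against 1.55% in Foxb1 2 and in Irx3+Otx2 1. Irx3+Otx2 is the only group with a library on each side, so a difference of Eomes or Otx2 from WI cannot be told apart from library number except through that 1 pair of libraries.

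Most chromatin regulator genes were well expressed in the cap. Averaged over the 16 libraries, 11 members exceeded 100 TPM, 35 lay between 10 and 100 TPM, 19 between 1 and 10 TPM and 8 under 1 TPM. 64 of the 73 lay above the median identifier and 26 were in the highest 10%. Counts were found in all 16 libraries for 67 members. The filter on low counts kept 69 members for testing, and smarca1, tet2, setd9 and chd5-like.1 did not pass it.

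Among the writers of histone methylation, setd8 had the highest level of any member, 321 ± 56.4 TPM (SD, n = 16). RefSeq gives setd8 as a synonym of kmt5a, the enzyme that places a single methyl group on lysine 20 of histone H4 and that is needed for cell division in mammals. Its values ran from 248 TPM in WI 2 to 461 TPM in Irx3+Otx2 1, and the lowest of them was above the highest value of any other methyltransferase gene (103 TPM, for ezh2). ezh2, the catalytic subunit of Polycomb repressive complex 2, came next at 72.2 ± 13.7 TPM. The genes for lysine 4 methyltransferases were lower: kmt2d at 44.96 ± 12.1 TPM, kmt2b at 41.1 ± 23.4 TPM and setd1a-like at 40.8 ± 12.1 TPM. setd2, which writes the mark on lysine 36 in transcribed gene bodies, stood at 47.9 ± 17.1 TPM, and setd9 closed the list at 0.776 TPM. The SDs of setd2, kmt2d, kmt2b and setd1a-like over the libraries overlap, and their order within single libraries was not tested.

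The erasers of histone methylation formed a flatter group. kdm3a-like, whose mammalian counterpart removes methyl groups from lysine 9 of H3, averaged 89.2 ± 27.3 TPM. kdm1a-like, the LSD1 gene, stood at 67.1 ± 15.2 TPM, kdm5c at 64.7 ± 16.9 TPM, kdm4a at 62.0 ± 20.8 TPM and kdm5b at 61.9 ± 20.03 TPM. The last 4 lie within each other's SD. kdm6a averaged 19.9 ± 10.9 TPM, and kdm1b, the second flavin-dependent demethylase, was the lowest member of its family at 1.13 ± 0.664 TPM.

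Among deacetylases one gene dominated. hdac1 averaged 191 ± 41.7 TPM, with a lowest value of 134 TPM and a highest of 261 TPM, the next gene, hdac2, averaged 29.9 ± 14.4 TPM, and hdac9 was at 0.999 ± 0.709 TPM. hdac3, the catalytic partner of the nuclear receptor corepressors, stood at 5.35 ± 2.82 TPM.

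SWI/SNF and other smarc genes carried the largest summed level of the 7 roles. They summed to between 755 and 1154 TPM in every library, which was 26.6% to 33.7% of the summed member TPM. Several scaffold and subunit genes were abundant: smarcc1 averaged 157 ± 31.3 TPM, smarcd1 122 ± 30.6 TPM, smarcb1 102 ± 22.7 TPM and arid1a, the large DNA-binding subunit, 113 ± 35.7 TPM. Their paralogs were lower, smarcc2 at 12.5 TPM, smarcd2 at 37.99 TPM and arid1b at 2.64 TPM. The motor gene smarca4 (Brg1) averaged 114 ± 32.8 TPM, and smarca5, the motor of the separate ISWI complexes, 122 ± 27.5 TPM. The ISWI paralog smarca1 was close to absent, at 0.105 TPM on average and 0 in 3 libraries.

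Of the remodelers of the CHD family, chd7-like was highest at 123 ± 22.3 TPM, followed by chd1 at 67.9 ± 21.6 TPM and chd8 at 42.9 ± 15.6 TPM. chd4, the motor of the NuRD deacetylase complex in mammals, averaged 11.4 ± 7.24 TPM, on a gene model of only 1425 bases, so its level may not stand for the whole gene. The chd5-like models lay at 0.0919 and 0.0181 TPM. Of the other ARID genes, arid3b reached 152 ± 32.3 TPM and arid5b-like.1 was the lowest at 8.25 ± 6.57 TPM.

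DNA methylation genes were split between one high and 2 very low members. dnmt1 averaged 111 ± 78.3 TPM, the largest spread of any member over 100 TPM relative to its mean, from 37.4 TPM in WI 1 to 274 TPM in Eomes 2. tet3 averaged 0.610 ± 0.389 TPM and tet2 0.0691 TPM, with 9 libraries at 0 for tet2. Both Tet genes were thus over 100 times lower than dnmt1 in the mean.

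**Figure D1:**
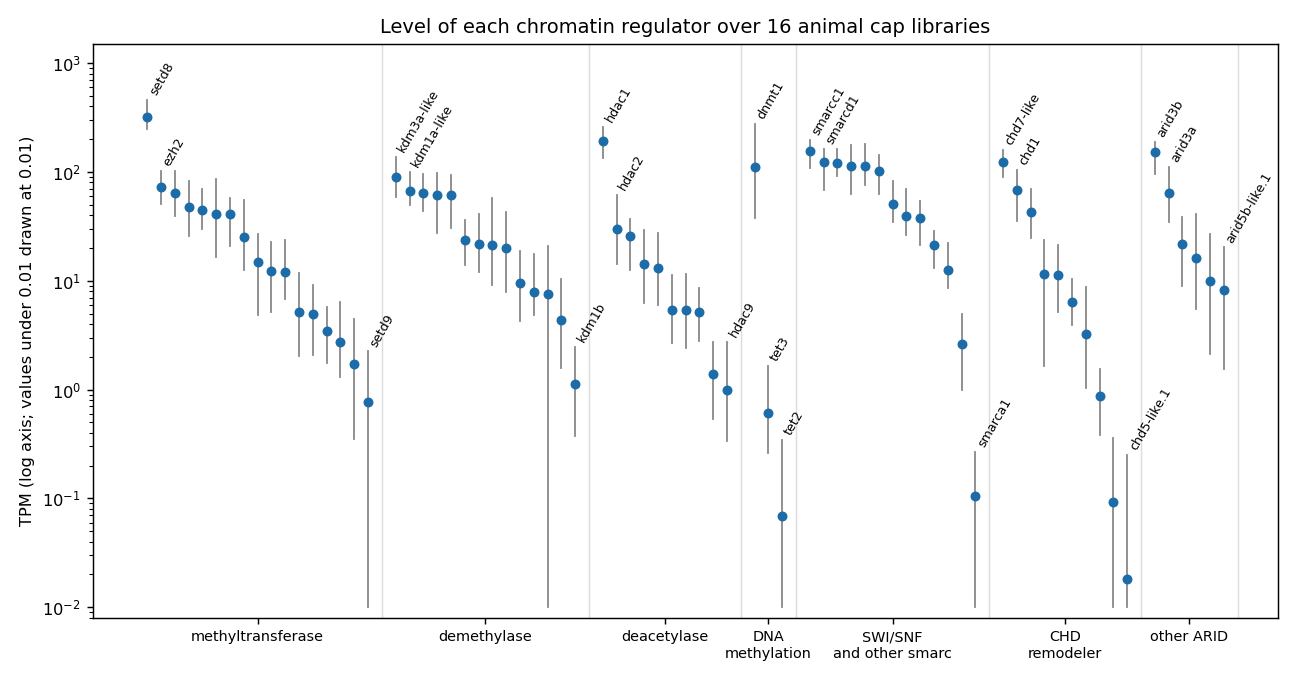
Level of each chromatin regulator gene, in TPM on a log axis, grouped by role and ordered by level; points are means and bars span the lowest to the highest of the 16 libraries. setd8 (321 TPM) and hdac1 (191 TPM) lie highest, and tet3 (0.610 TPM) and tet2 (0.0691 TPM) lie near the bottom of the axis.

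In caps, paralogs were used unevenly, and the member that led was the same in nearly every library. Ratios of 2 TPM values within a library do not depend on library scaling, so they are given as lowest, median and highest over the 16 libraries. hdac1 exceeded hdac2 by 3.72, 6.82 and 12.0 times, and ezh2 exceeded ezh1 by 10.6, 32.8 and 53.8 times. Of the SWI/SNF pairs, smarca4 exceeded smarca2-like by 2.06, 3.03 and 4.16 times, smarcc1 exceeded smarcc2 by 8.78, 12.5 and 19.6 times, and arid1a exceeded arid1b by 28.9, 41.4 and 94.9 times. In each of these pairs the first gene led in 16 of 16 libraries, those of every injected factor included.

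The lysine 4 writers of the caps also had a constant leader, with smaller margins. kmt2d exceeded kmt2c by 2.88, 3.61 and 6.43 times and kmt2b exceeded kmt2a by 1.93, 3.70 and 5.18 times. setd1a-like and setd1b came closest to parity among the pairs with a constant leader, with ratios of 1.01, 1.78 and 2.91. For the erasers, kdm1a-like exceeded kdm1b by 37.3, 67.5 and 161 times, while kdm5c and kdm5b had no constant order: the ratio was 0.764, 1.02 and 1.89, and kdm5c was ahead in 10 of 16 libraries.

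As a description, with no share of other gene pairs to set it against, 5 of the 14 pairs with a ratio in every library had values in libraries 12 to 16 that did not overlap those of the other 11. The ratio of ezh2 to ezh1 was 10.6 to 25.4 in libraries 12 to 16 and 30.9 to 53.8 elsewhere. That of setd1a-like to setd1b was 1.01 to 1.37 against 1.62 to 2.91, that of chd7-like to chd8 2.18 to 2.34 against 2.46 to 4.81, that of kmt2d to kmt2c 2.88 to 3.18 against 3.22 to 6.43, and that of arid4a to arid4b 1.16 to 1.60 against 1.63 to 8.47. In all 5 the ratio was lower in libraries 12 to 16.

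**Figure D2:**
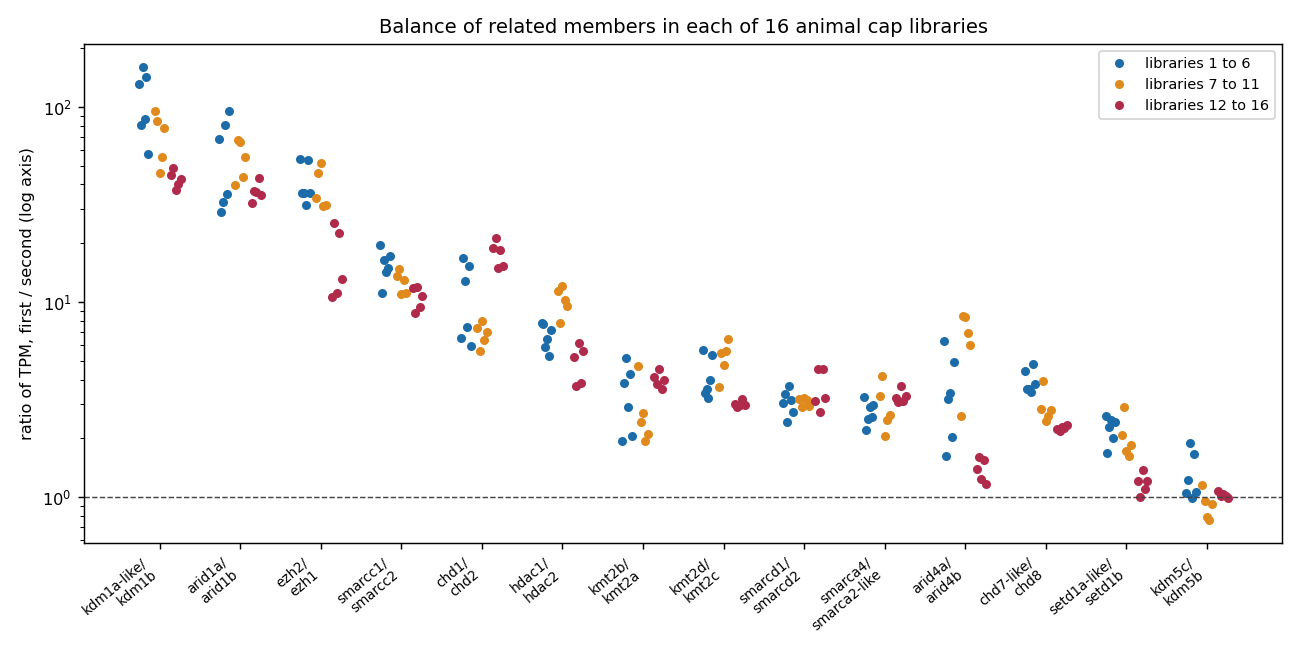
Ratio of the TPM of 2 paralogs within each library, on a log axis, 1 point a library, coloured by range of library number. arid1a over arid1b and kdm1a-like over kdm1b have the largest ratios, kdm5c over kdm5b lies around 1, and libraries 12 to 16 lie lowest for ezh2 over ezh1 (10.6 to 25.4).

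Against this hierarchy, no member's difference between injected and WI caps was resolved by the main test, with 2 libraries a group. Differences are given in CPM, estimated counts scaled to library size with the trimmed mean of M values (TMM), and were tested with edgeR's quasi-likelihood test, in 1 fit over the 16 libraries, and a gene was called at a Benjamini-Hochberg adjusted p under 0.05 over 14176 genes tested. No member was called in any of the 7 groups against WI. Over all genes tested the called share was 0.0% in Foxb1, 0.198% in Eomes, 0.346% in Foxb1+Eomes, 0.0% in Irx3, 0.0% in Otx2, 0.127% in Irx3+Otx2 and 0.00705% in Lhx8, so few genes of any kind passed. At an unadjusted p under 0.05, the members numbered 0 in Foxb1 (0.6% of all genes), 9 in Eomes (18.7%), 0 in Foxb1+Eomes (4.6%), 1 in Irx3 (1.38%), 9 in Otx2 (16.6%), 6 in Irx3+Otx2 (12.8%) and 0 in Lhx8 (1.5%). With DESeq2, 1 member was called in Eomes (6.07% of all genes) and 1 in Otx2 (3.49%), arid5b-like.1 both times. It called none in Foxb1 (0.00705% of all genes), Foxb1+Eomes (0.79%), Irx3 (0.0423%), Irx3+Otx2 (2.06%) or Lhx8 (0.0917%). All 7 comparisons share the 2 WI libraries.

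The precision was modest. The 95% confidence interval of a member's log2 difference had a median half-width of 0.88 to 0.89 over the 7 comparisons, which is a fold of 1.84 to 1.86. Only 16 of 69 members in Eomes and 32 in Foxb1 had an interval lying wholly within a 2-fold change in either direction, with the other groups between these. For the remaining members a change of 2-fold or more was not excluded by the interval.

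The median log2 difference of the 69 members was 0.09 in Foxb1 (all genes 0.02), 0.05 in Eomes (0.01), 0.00 in Foxb1+Eomes (0.04), 0.04 in Irx3 (0.04), 0.07 in Otx2 (0.01), 0.25 in Irx3+Otx2 (0.07) and 0.04 in Lhx8 (0). These medians turned with single libraries: to -0.07 in Eomes without WI 2, to -0.34 in Foxb1+Eomes without its first library, to -0.24 in Irx3 without its first, to -0.04 in Otx2 without its second, to -0.07 in Irx3+Otx2 without its first and to -0.08 in Lhx8 without its first. Leaving out 1 library at a time, the median of Foxb1 ran from 0.05 to 0.15, and the highest values in Foxb1+Eomes and Irx3 were 0.16 and 0.21, each without the second library of the group. The number above WI was 48, 37, 35, 38, 35, 47 and 36 of 69 in the same order. Both libraries of a group lay above both WI libraries for 12 members in Foxb1 (7.96% of all genes), 14 in Eomes (28.3%), 4 in Foxb1+Eomes (14.5%), 7 in Irx3 (11.1%), 23 in Otx2 (28.5%), 12 in Irx3+Otx2 (20.5%) and 12 in Lhx8 (12.7%). Both lay below both WI libraries for 1 member in Foxb1 (7.48% of all genes), 22 in Eomes (27.0%), 6 in Foxb1+Eomes (12.3%), 4 in Irx3 (8.74%), 18 in Otx2 (26.6%), 9 in Irx3+Otx2 (20.8%) and 8 in Lhx8 (10.3%). Eomes and Otx2, the groups with both libraries in numbers 12 to 16, had the most genes of any kind outside the WI range.

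**Figure D3:**
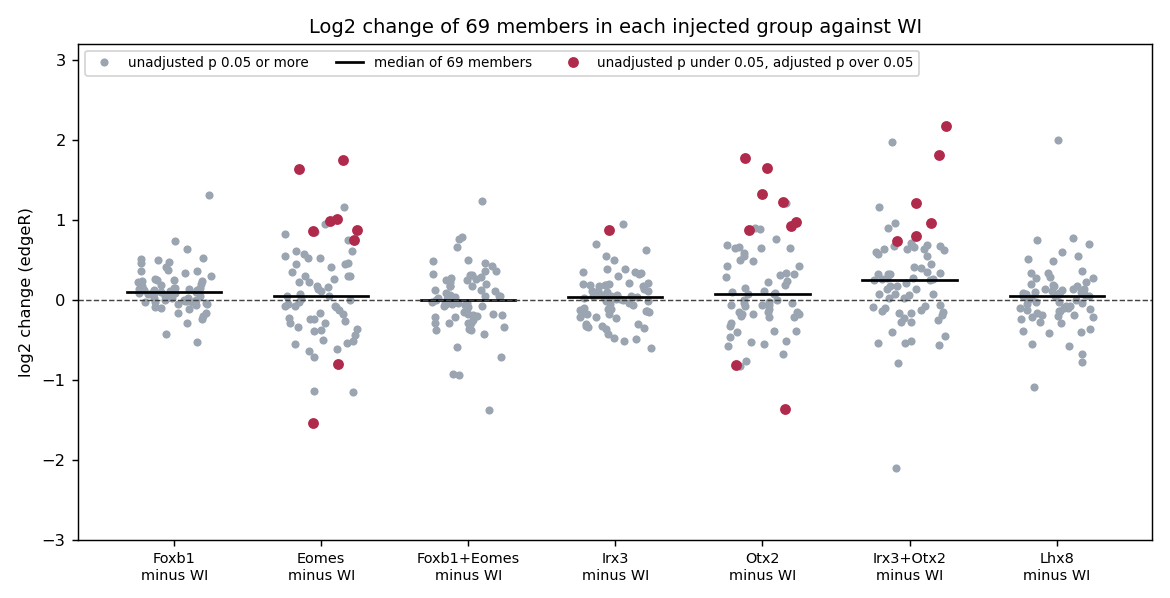
Log2 difference from WI of each tested chromatin regulator gene in the 7 injected groups, 1 point a gene with the median as a line and points at an unadjusted p under 0.05 in red. The medians lie between 0.00 (Foxb1+Eomes) and 0.25 (Irx3+Otx2), and no point was called.

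In Eomes caps, the members furthest from WI were 2 ARID genes. arid5b-like.1, related to a DNA-binding partner of the demethylase Phf2 in mammals, stood at 27.7 and 32.1 CPM in the Eomes libraries and at 5.02 and 14.04 CPM in WI, a log2 difference of 1.63 (SE 0.50, 95% interval 0.54 to 2.72, edgeR adjusted p 0.134). arid4b, whose mammalian product joins the Sin3 deacetylase complex, was at 45.4 and 56.2 CPM against 15.6 and 14.7 CPM, a log2 difference of 1.75 (SE 0.70, adjusted p 0.211). The libraries of the groups did not overlap for either gene. Without WI 1 the difference of arid5b-like.1 was 1.09, and without WI 2 it was 2.58.

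dnmt1 was at 565 and 897 CPM in Eomes and at 253 and 399 CPM in WI, a log2 difference of 1.16 (SE 0.54, adjusted p 0.270). Lower in Eomes were chd2, at 20.99 and 21.9 CPM against 85.8 and 39.7 CPM (log2 difference -1.54, SE 0.53, adjusted p 0.154), and ezh2, at 140 and 112 CPM against 280.03 and 158 CPM (-0.80, SE 0.35, adjusted p 0.246). setd8 was at 526 and 452 CPM against 937 and 669 CPM (-0.72, SE 0.47, adjusted p 0.431). The Eomes libraries lay outside the WI range for all 3. Without WI 1 the log2 difference was -0.89 for chd2, -0.33 for ezh2 and -0.45 for setd8, and without the second Eomes library that of dnmt1 was 0.76. With limma on TPM the log2 difference of ezh2 and setd8 was 0.059 and 0.11, and with library number range as a term it was 0.17 and 0.67. By role and with TMM scaling, 2 of 12 SWI/SNF and other smarc members lay above WI, with a median of -0.33. Of the 6 other ARID genes, 5 lay above WI, with a median of 0.50. Of all genes, 50.5% lay above WI. In TPM the direction of the SWI/SNF and other smarc genes turned, and each of the 12 had a higher mean in Eomes than in WI. For smarca5 it was 141 against 93.1 TPM and for smarcb1 108 against 91.6 TPM. With limma on TPM the median of all genes was 0.66.

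Mesoderm markers stood at 891 and 647 TPM in Eomes against 43.1 and 45.6 TPM in WI, and ectoderm markers at 1426 and 934 TPM against 3593 and 2326 TPM. The mesoderm list holds eomes itself, at 727 and 342 TPM in the Eomes libraries, so its sum there includes the injected factor. The part of these marker levels in the chromatin regulator values was not tested. In Foxb1+Eomes, mesoderm markers stood at 977 and 704 TPM, with eomes at 215 and 169 TPM among them. There arid5b-like.1 averaged 10.5 CPM (12.9 and 8.20 CPM) against 9.53 CPM in WI (5.02 and 14.04 CPM). ezh2 averaged 260.3 CPM (258 and 263 CPM) against 219 CPM (280.03 and 158 CPM). For both genes 1 library lay above and 1 below the WI library of its number range.

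Otx2 caps gave values close to those of Eomes caps for the same genes. arid5b-like.1 was at 29.8 and 30.99 CPM (log2 difference 1.65, SE 0.50, adjusted p 0.179), arid4b at 50.6 and 52.7 CPM (1.77, SE 0.70, adjusted p 0.245) and dnmt1 at 628 and 891 CPM (1.22, SE 0.54, adjusted p 0.286). kdm1b, at 5.99 and 6.34 CPM against 1.95 and 2.89 CPM in WI, was 1.33 higher on the log2 scale (SE 0.56, adjusted p 0.264). chd2 had a log2 difference of -1.37 (24.8 and 23.7 CPM, adjusted p 0.235), ezh2 one of -0.81 (127 and 123 CPM, adjusted p 0.274) and setd8 one of -0.68 (521 and 484 CPM, adjusted p 0.488). Without WI 1 these 3 values were -0.71, -0.35 and -0.42, and without WI 2 that of arid5b-like.1 was 2.59. With library number range as a term ezh2 lay at 0.16 and setd8 at 0.71, and with limma on TPM setd8 lay at 0.076. Ectoderm markers stood at 1296 and 1009 TPM and neural plate markers at 1786 and 2207 TPM, against 489 and 777 TPM in WI. The neural plate list holds otx2 itself, at 318 and 284 TPM in the Otx2 libraries, so its sum there includes the injected factor. Eomes and Otx2 share the 2 WI libraries as well as the library numbers 12 to 16.

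In Irx3+Otx2 caps, the largest difference was that of tet3, the Tet gene that in mice oxidises the paternal genome after fertilisation. tet3 was at 24.8 CPM in the first library and 7.56 CPM in the second, against 3.62 and 3.51 CPM in WI. The log2 difference was 2.18 (SE 0.61, 95% interval 0.86 to 3.49, adjusted p 0.188), and without the first Irx3+Otx2 library it was 1.08 (adjusted p 0.448). tet3 remained one of the least abundant members even there, at 1.63 TPM.

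arid4b was at 45.3 and 61.1 CPM in Irx3+Otx2 (log2 difference 1.81, SE 0.70, adjusted p 0.325) and arid5b-like.1 at 16.02 and 28.8 CPM (1.22, SE 0.50, adjusted p 0.346). The latter was 0.67 without WI 1, 2.15 without WI 2 and 0.73 without the second Irx3+Otx2 library. Among members with a mean log2 CPM of at least 2 whose libraries did not overlap WI, the lowest were SWI/SNF subunit genes. smarcd2 had a log2 difference of -0.54 (adjusted p 0.522), smarcd1 one of -0.51 (adjusted p 0.492) and smarcb1 one of -0.45 (adjusted p 0.555). In TPM the libraries of all of these overlapped WI. The lowest difference of any tested member was -2.10. By role, 7 of 12 SWI/SNF and other smarc members lay above WI (54.1% of all genes), with a median of 0.14. Irx3+Otx2 had one library outside numbers 12 to 16, and in that library arid4b lay 1.51 and arid5b-like.1 1.58 log2 units above the WI library of the same number range. This was not particular to Irx3+Otx2. In the other injected libraries of that range, arid4b lay from 0.20 (Lhx8) to 1.43 (Foxb1) above that WI library. For arid5b-like.1 these differences ran from 1.28 (Foxb1+Eomes) to 1.73 (Foxb1).

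Foxb1+Eomes, Foxb1, Irx3 and Lhx8 have 1 library in numbers 1 to 6 and 1 in 7 to 11, as WI does. In Foxb1+Eomes, tet3 was at 6.68 and 10.2 CPM (log2 difference 1.24, SE 0.60, adjusted p 1) and chd9 at 7.63 and 9.41 CPM against 5.57 and 4.34 CPM in WI (0.79, SE 0.38, adjusted p 1). chd4 was at 6.20 and 5.77 CPM against 16.4 and 14.7 CPM (-1.38, SE 0.79, adjusted p 1), while setd4 had a log2 difference of -0.94 and hdac10 one of -0.71. Without WI 2 the last 2 were -0.38 and -0.17.

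In Irx3 caps, setd6 (log2 difference 0.95, SE 0.63), chd9 (0.87, SE 0.38) and ezh1 (0.69, SE 0.56) were the highest of the members with a mean log2 CPM of at least 2 whose libraries did not overlap WI, and kdm3a-like (-0.35), arid1a (-0.33) and kmt2d (-0.33) the lowest, all with an adjusted p of 1. setd6 was 1.84 without WI 1 and 0.39 without WI 2, kdm3a-like was -0.22 without WI 2, and without the first and the second Irx3 library arid1a was -0.64 and -0.08 and kmt2d -0.56 and -0.14. By the same rule, in Lhx8 caps they were chd9 (0.78), kdm1b (0.75) and setd6 (0.70) at one end and chd4 (-0.78), arid1b (-0.67) and chd6-like (-0.58) at the other, again with an adjusted p of 1. Without WI 1 and WI 2 setd6 was 1.60 and 0.15 and arid1b -1.01 and -0.21, and without the first Lhx8 library chd9 was 0.41. In Foxb1 caps kdm1b (0.51), tet3 (0.48) and hdac6-like (0.36) were above WI and hdac3 (-0.53, SE 0.42) below it, each with an adjusted p of 1. Without WI 1 and WI 2 kdm1b was 0.27 and 0.83, hdac6-like 0.08 and 0.72 and hdac3 -0.08 and -0.89, and without the second Foxb1 library tet3 was 0.29.

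chd9, a CHD remodeler of low abundance, was at 5.57 and 4.34 CPM in WI and between 6.19 and 10.9 CPM in the other 14 libraries. The lowest of these were the Foxb1 libraries, at 6.24 and 6.19 CPM. The log2 difference from WI was 0.33 in Foxb1 (SE 0.39) and ran from 0.78 in Lhx8 to 0.96 in Irx3+Otx2 in the others. It was singled out after its values were seen, 2 WI libraries stand behind all 7 values, and the lowest adjusted p was 0.242.

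**Figure D4:**
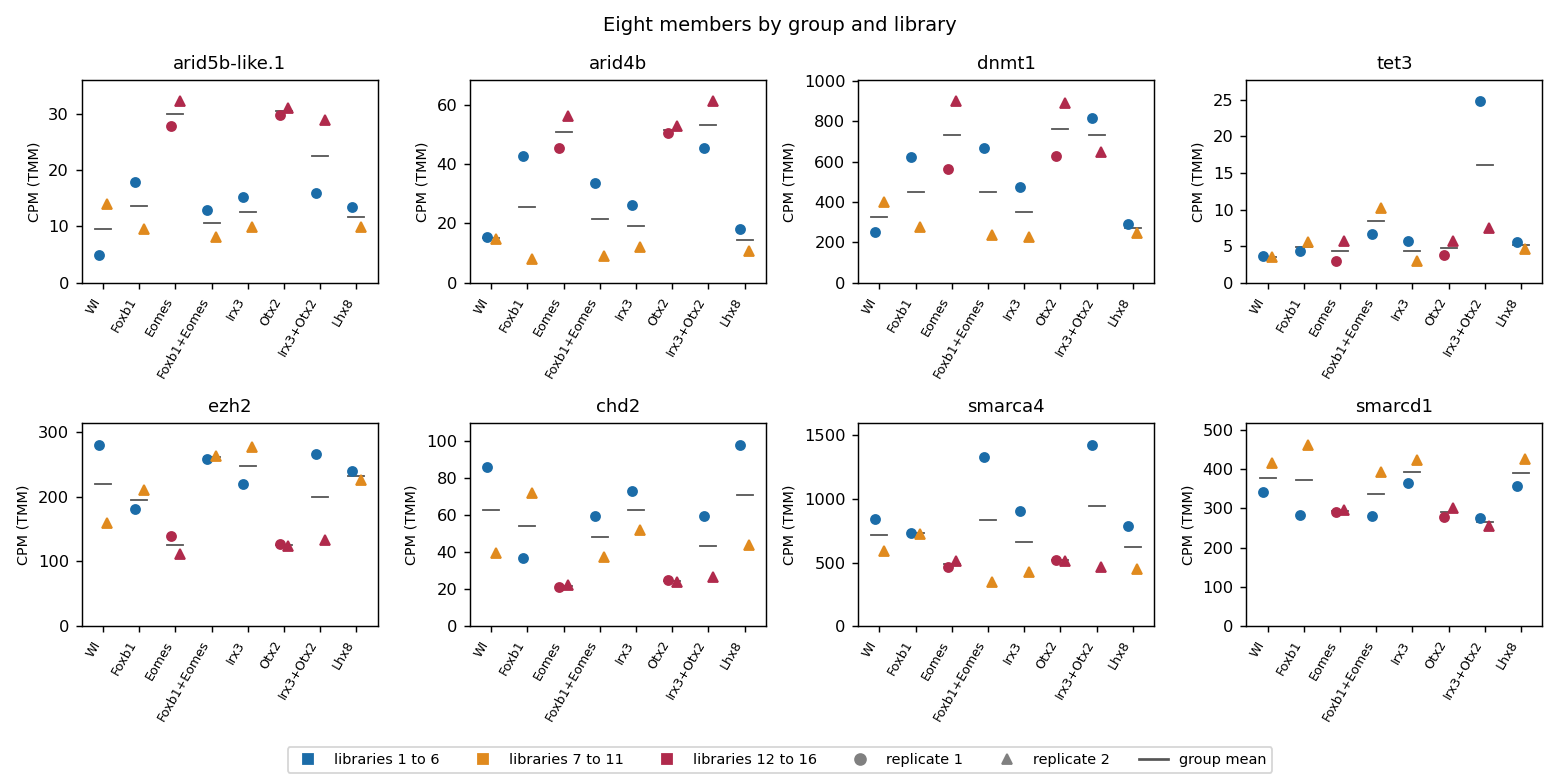
CPM of selected chromatin regulator genes in each of the 16 libraries, coloured by range of library number, with lines at the group means. With TMM scaling, arid4b and arid5b-like.1 are highest and ezh2 (whose sign in Eomes turns with TPM) and chd2 lowest in libraries 12 to 16, and tet3 is highest in the first Irx3+Otx2 library (24.8 CPM).

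The order of libraries behind these values followed the library number as well as the injected factor. 3 members were higher in all of libraries 12 to 16 than in all other 11, where 8.43% of all genes were: arid4b (45.4 to 61.1 CPM against 8.18 to 45.3 CPM), arid5b-like.1 (27.7 to 32.1 CPM against 5.02 to 17.8 CPM) and kdm7a (103 to 167 CPM against 39.0 to 93.6 CPM). 5 members were lower in all of them, where 5.59% of all genes were: setd8 (452 to 526 CPM against 669 to 1527 CPM), hdac1 (329 to 381 CPM against 384 to 573 CPM), ezh2 (112 to 140 CPM against 158 to 280.03 CPM), smarca2-like (151 to 178 CPM against 178 to 593 CPM) and chd2 (20.99 to 26.5 CPM against 36.5 to 97.8 CPM). Against these shares of all genes, 3 and 5 of 69 tested members are no result about the members as a group. With TPM in place of CPM, the lowest setd8 and ezh2 values were both in WI 2. The direction of hdac1 and smarca2-like against WI turned too. hdac1 averaged 219 TPM in Eomes and 214 TPM in Otx2 against 158 TPM in WI. For smarca2-like the means were 38.6 and 36.5 TPM against 30.2 TPM. chd2 stayed lower, at 4.39 and 4.71 TPM against 7.05 TPM.

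Within a number range, the sign of a difference from WI often turned between ranges. dnmt1 lay above WI in every injected library numbered 2 to 6, by 1.30 log2 units in Foxb1, 1.40 in Foxb1+Eomes, 0.91 in Irx3, 1.68 in Irx3+Otx2 and 0.21 in Lhx8. In numbers 7 to 10 it lay below WI in all 4 libraries, at -0.53 in Foxb1, -0.76 in Foxb1+Eomes, -0.81 in Irx3 and -0.69 in Lhx8. arid4b and arid5b-like.1 turned in the same way, at 1.08 and -0.66 for arid4b and 1.28 and -0.74 for arid5b-like.1 in Foxb1+Eomes. Over the 69 members, the sign was the same in both ranges for 17 in Foxb1 (24.6%, all genes 28.0%), 20 in Foxb1+Eomes (29.0%, all genes 42.7%), 23 in Irx3 (33.3%, all genes 37.3%) and 35 in Lhx8 (50.7%, all genes 44.7%).

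The pairs were also set against their single factors. No member was called in Foxb1+Eomes against Foxb1 (0.0705% of all genes), in Foxb1+Eomes against Eomes (0.0423%), in Irx3+Otx2 against Irx3 (0.0494%) or in Irx3+Otx2 against Otx2 (0.0%). At an unadjusted p under 0.05 there was 1 member of 69 in the first comparison (4.07% of all genes), 7 in the second (15.4%), 2 in the third (14.6%) and 1 in the last (4.71%). DESeq2 called none in these 4 comparisons either, with 0.536%, 2.25%, 2.38% and 0.169% of all genes called in the same order.

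Foxb1+Eomes against Eomes held most of these. ezh2 was 1.05 log2 units higher with both factors than with Eomes alone (SE 0.35, adjusted p 0.237; 258 and 263 CPM against 140 and 112 CPM), and chd2 1.17 higher (adjusted p 0.312). arid5b-like.1 had a log2 difference of -1.51 (SE 0.50, adjusted p 0.231; 12.9 and 8.20 CPM against 27.7 and 32.1 CPM), and the demethylase genes kdm7a, kdm8 and kdm6a lay at -1.07, -1.05 and -0.82. The Foxb1+Eomes libraries are numbers 5 and 9, so the same limit applies.

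tet3 had the lowest p of the members in both comparisons of Irx3+Otx2 with a single factor: it was 1.87 log2 units above Irx3 (SE 0.59, adjusted p 0.222; Irx3 at 5.74 and 3.002 CPM) and 1.76 above Otx2 (SE 0.58, adjusted p 1; Otx2 at 3.76 and 5.74 CPM). chd4 had a log2 difference of -1.79 between Foxb1+Eomes and Foxb1, whose libraries were at 8.43 and 32.7 CPM (SE 0.79, adjusted p 1).

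The test of whether a pair departs from the sum of its single factors on the log2 scale called no member in either pair, and no gene of any kind (0.0% of all genes in both). DESeq2 also called no member, with 0.0212% of all genes called for Foxb1 and Eomes and 0.0494% for Irx3 and Otx2. For Foxb1 and Eomes, 3 members had an unadjusted p under 0.05 (8.16% of all genes): arid5b-like.1 (-2.01, SE 0.71), kdm8 (-1.43, SE 0.59) and ezh2 (1.22, SE 0.50), each with an adjusted p of 0.606. For Irx3 and Otx2 there was none (1.78% of all genes). The intervals were wide, with a median half-width of 1.25 and 1.23 log2 units.

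Individual members differed much in how steady they were. The ratio of highest to lowest CPM over the 16 libraries had a median of 2.56 for the 69 tested members and 3.80 for all tested genes. It was under 2 for 14 members, 2 to 4 for 40 and at least 4 for 15, 2 of which had a library at 0. The names that follow were picked after these values were seen. The steadiest in CPM was chd8, a CHD protein that in mammals binds beta-catenin, at 277 to 381 CPM, a ratio of 1.38. arid2-like had a ratio of 1.47, arid3a 1.48, kdm5c 1.69, kdm5b 1.73 and hdac1 1.74. Among the least steady were chd4 at 10.9 (3.01 CPM in Irx3+Otx2 1 to 32.7 CPM in Foxb1 2), tet3 at 8.48, arid4b at 7.47 and setd7 at 6.86. This order holds for TMM scaling only. In TPM chd8 ran from 24.9 to 70.2 TPM and arid3a from 34.9 to 110 TPM. chd7-like and setd8 were steadier there, at 89.8 to 160 TPM and 248 to 461 TPM.

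With TMM scaling, highest and lowest values were unevenly spread over libraries. The first Irx3+Otx2 library held the highest CPM of 18 of 69 members (26.1%, against 12.8% of all tested genes), and the second Foxb1+Eomes library held the lowest of 20 members (29.0%, against 7.15%). Each is 1 library of a group whose other library did not show it: the second Irx3+Otx2 library held the highest value of 5 members and the first Foxb1+Eomes library the lowest of 7. The place of the extremes changed with TPM. There the first Irx3+Otx2 library held the highest value of setd8 (461 TPM) and tet3 (1.63 TPM) only. It held the lowest of members such as hdac1 (134 TPM), smarcd1 (68.0 TPM) and kdm5b (30.8 TPM).

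With TMM scaling, some SWI/SNF genes differed much between the libraries of one group. smarca4 was at 1326 CPM in the first and 344 CPM in the second Foxb1+Eomes library, and at 1427 and 467 CPM in Irx3+Otx2. smarcc1 followed the same course, at 1296 and 523 CPM and at 1353 and 543 CPM, as did smarca2-like at 561 and 178 CPM and at 593 and 151 CPM. The small subunit genes did not: smarcd1 was at 280 and 391 CPM in Foxb1+Eomes and at 276 and 255 CPM in Irx3+Otx2, and smarcb1 at 144 and 210 CPM and at 138 and 116 CPM. arid2-like was nearly level, at 426 and 347 CPM and at 451 and 398 CPM. In CPM, smarca4, smarcc1 and smarca2-like thus differed more between the libraries of one group than any of their group means differed from WI. In TPM the Irx3+Otx2 libraries stood at 170 and 128 TPM for smarca4 and at 182 and 168 TPM for smarcc1. There smarcd1 stood at 68.0 and 144 TPM and smarcb1 at 62.7 and 119 TPM. In Foxb1+Eomes, smarca4 was at 177 and 63.0 TPM and smarcc1 at 195 and 108 TPM.

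Other chromatin genes outside the symbol rule were compared in the same fit. A list of 75 symbols, among them Polycomb, HP1, NuRD, acetyltransferase and histone variant genes, gave 67 identifiers, 66 of which were tested in the caps. None was called in any of the 13 cap comparisons. At an unadjusted p under 0.05, 4 lay above and 7 below WI in Eomes (18.7% of all genes in either direction) and 5 above and 5 below in Otx2 (16.6%). In Irx3+Otx2 3 lay above and 3 below (12.8%), and in Foxb1+Eomes 1 above and 0 below (4.6%). There were none in Foxb1 (0.6%), Irx3 (1.38%) or Lhx8 (1.5%). Against these shares of all genes, the counts are no result about the listed genes as a group. Of the listed genes at that unadjusted p, men1, which encodes the menin partner of Kmt2a and Kmt2b, lay 1.34 above WI in Eomes (adjusted p 0.142), 1.32 above it in Otx2 (adjusted p 0.187) and 1.48 above it in Irx3+Otx2 (adjusted p 0.207). Below WI were kat8 at -1.95 (adjusted p 0.139) and h2afz at -1.24 (adjusted p 0.142) in Eomes, and dpy30 at -1.16 in Otx2 (adjusted p 0.174). With TMM scaling the median of the list was -0.27 in Eomes and -0.24 in Otx2, against 0.01 for all genes in both. With limma on TPM the median of all genes was 0.66 in Eomes and 0.59 in Otx2. The median of the list in TPM was not computed, so its direction is given for TMM scaling only.

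The single cells were read by another protocol. The 25 cells of AC 1 held 3002901 reads in genes, those of AC 2 1123173, of BL 1 2248931 and of BL 2 755591, without molecular identifiers, so read counts are not counts of molecules. Members took 1.04%, 0.924%, 0.954% and 0.670% of these reads. 26 of the 73 members had reads in at least 50 of the 100 cells, 33 in 10 to 49 cells, 9 in 1 to 9 cells and 5 in none.

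setd8 was again at the top, with reads in 90 of 100 cells, followed by dnmt1 in 89, smarca5 and chd1 in 86 each, chd7-like in 85, smarca4 in 83, hdac1 in 82, smarcc1 in 81 and ezh2 in 76. The members without a read were tet2, tet3, hdac5, setd4 and chd5-like.1. For each of these, 0 of 100 cells allows a share of cells with a read of up to 3%, which covers counting error only. tet2 and chd5-like.1 were also among the lowest members in caps, whereas setd4 averaged 5.19 TPM there. The rank of reads per kilobase in cells and of TPM in WI caps were related over the 73 members with a Spearman rho of 0.857, a description across genes that are not independent.

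Some members departed from that order. arid3b had reads in 25 cells and arid1a in 36 although their WI means were 136 and 98.0 TPM, and setd1a-like had reads in 14 cells at a WI mean of 32.9 TPM. arid4a had reads in 75 cells at a mean of 14.8 TPM in WI caps. In reads per kilobase over all cells, kmt2b stood at 32.2 and kmt2a at 60.1, and setd1a-like at 18.3 and setd1b at 74.5. Both orders are the reverse of those in caps. kmt2d, at 61.5, lay close to kmt2c, at 57.3. The other pairs with a ratio and a constant leader in caps kept their order. The cells were amplified by a protocol different from that of the caps, and its part in these departures was not tested.

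**Figure D5:**
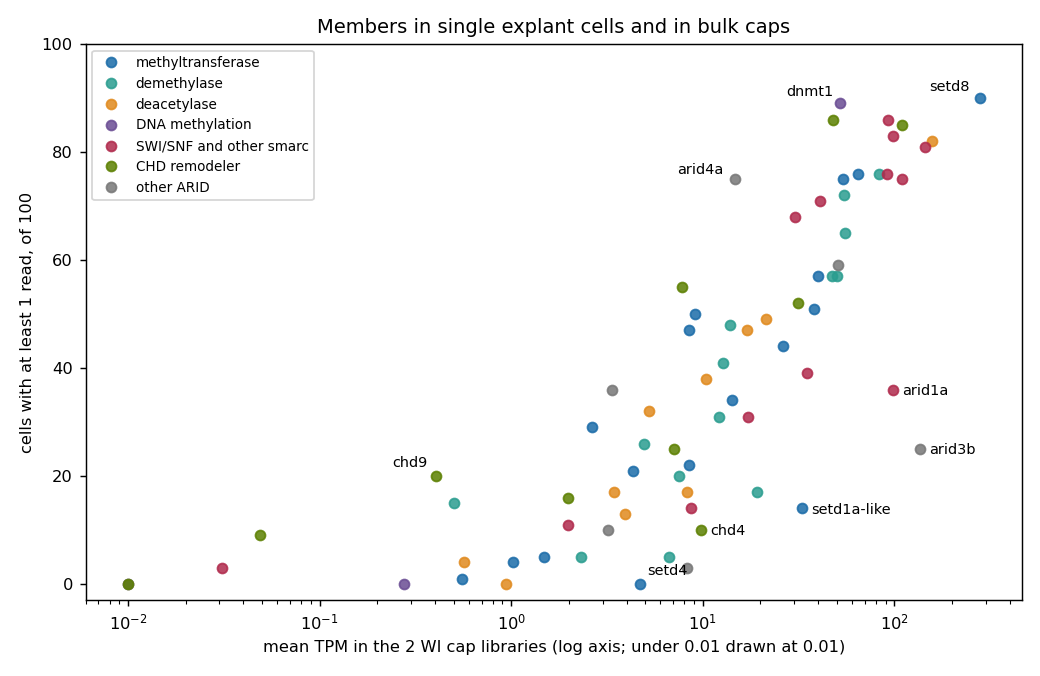
Number of the 100 explant cells with at least 1 read against the mean TPM of the 2 WI libraries (log axis) for each chromatin regulator gene, coloured by role. setd8 (90 cells) lies at the top right, and arid1a (36 cells) and arid3b (25 cells) lie below genes of like TPM.

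The shares of the roles among member reads per kilobase differed in part from their shares of member TPM in caps. SWI/SNF and other smarc genes took 27.6% and 28.8% in AC 1 and AC 2 and 30.2% and 30.9% in BL 1 and BL 2. These lay within the 26.6% to 33.7% of the cap libraries. Demethylase genes took 10.4% to 10.9% over the 4 explant libraries, below the 11.3% to 17.4% in caps, and other ARID genes 3.46% to 5.29%, below the 6.13% to 10.9% in caps. The other roles overlapped the cap range and passed its upper end in some libraries: methyltransferase genes took 26.6% to 30.9% against 21.4% to 29.5%, deacetylase genes 11.8% to 12.8% against 7.13% to 12.4%, CHD genes 8.54% to 10.1% against 7.23% to 9.83% and DNA methylation genes 4.01% to 7.13% against 1.56% to 6.49%. The median cell had reads for 35 members in AC 1, 34 in AC 2, 25 in BL 1 and 20 in BL 2. Median reads per cell were 96589, 34796, 51111 and 26325 in the same order, so depth differed and numbers of members per cell were not compared between explants. The shallowest cell of each library had 25, 33, 75 and 322 reads.

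Marker genes separated the explants: mesoderm markers summed to 135 and 82.4 CPM in AC and to 2225 and 2668 CPM in BL, and organizer markers to 203 and 449 CPM in AC and 2131 and 7221 CPM in BL. Chromatin regulator genes were compared on the read sums of the 4 libraries, over 8898 genes tested of which 56 were members. None was called (0.0% of all genes), and none had an unadjusted p under 0.05 (5.43% of all genes). The lowest adjusted p of a member was 0.966, and with DESeq2 no member was called either (1.28% of all genes). BL lay above AC for 19 of 56 members (48.8% of all genes). The median log2 difference of the members was -0.17, against -0.02 for all genes, and without BL 2 the member median was -0.03. Both BL libraries lay above both AC libraries for 7 members (16.6% of all genes) and below them for 10 (19.8%). The median half-width of the 95% interval was 1.38 log2 units, a fold of 2.61.

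Some abundant members overlapped between explants and others did not. smarcc1 lay higher in BL, at 287 and 364 CPM against 213 and 246 CPM in AC. chd7-like lay lower there, at 600 and 483 CPM against 621 and 653 CPM. setd8 stood at 986 and 1249 CPM in AC and at 1101 and 709 CPM in BL, dnmt1 at 805 and 574 CPM and at 465 and 607 CPM, and ezh2 at 209 and 227 CPM and at 181 and 256 CPM, with overlapping ranges for setd8, dnmt1 and ezh2. The widest differences fell on sparse genes. setd6 was at 0.599 and 14.5 CPM in AC and 21.8 and 55.5 CPM in BL, a log2 difference of 2.42 with a 95% interval of -0.98 to 5.81 (adjusted p 0.966). kdm1b lay 1.75 and chd9 1.29 log2 units above AC (adjusted p 0.966 and 0.977). setd1b was at 66.2 and 105 CPM in AC and at 53.1 and 0 CPM in BL, a log2 difference of -1.60 (SE 1.28, adjusted p 0.970), and kmt2c one of -1.097 (adjusted p 0.966). Without AC 1 and AC 2 setd6 was 1.39 and 5.84 and kdm1b 4.36 and 0.91, and without BL 1 and BL 2 kmt2c was -2.40 and -0.47. setd1b was -0.69 without BL 2 and is called without BL 1, where BL is represented by the library with no read for it.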

How the data were processed

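Per the labels' protocols, total RNA of animal caps was depleted of ribosomal RNA, made into libraries with the KAPA RNA HyperPrep kit and sequenced in pairs. The deposited cap tables give an estimated count and a TPM value per gene with an effective length, per the file headers; the quantification tool is not given in the sources used here. Because 16.7% of the estimated counts were not whole, they were rounded. The deposited explant tables give a read count per gene and cell from a modified Tang protocol without molecular identifiers, per the labels; STAR 2.5.0 is named in the submitters' processing notes, with no role stated. Reads outside genes (23.6% to 32.2% of all reads counted), reads not aligned (37.7% to 48.7%) and ambiguous reads (0.109% to 0.165%) stayed out of library sizes and tests.

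Members were matched by symbol, and the members and the lists of other chromatin genes and markers were chosen with earlier results of these data known. Of the member symbols, 72 are RefSeq symbols and 1 a RefSeq synonym. Near-identical copies such as the paired arid5b-like, kdm5a-like and chd5-like models may have shared reads, and their values are uncertain. edgeR 4.0.16 (R 4.3.3) fitted group means to all 16 cap libraries, or to the 4 explant sums, with TMM factors, its filter on low counts, the quasi-likelihood test and Benjamini-Hochberg adjustment over all genes tested. The test was checked on simulated counts. Levels between genes are TPM; differences between groups are CPM. Genes named in the comparisons with WI and between explants are the 3 highest and 3 lowest members whose libraries did not overlap, with a mean log2 CPM of at least 2 (4 in explants); others are the highest and lowest of each family, the widest over groups and well-known regulators, and those added by an unadjusted p under 0.05 or by their pattern over libraries were chosen after their values were seen. DESeq2 1.42.0, limma 3.58.1 on log2(TPM + 1), other factors, no filter, subsets of libraries and covariates were alternatives. Within number ranges, differences are of log2(CPM + 0.5) from the WI library of that range. Intervals on counts cover counting error only. The chromatin accessibility data were not used here. One gene of the list of other chromatin genes is not reported here by name.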

Additional observations from a re-analysis of the deposited data

How the results depend on the processing

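No member was called in any of the 14 comparisons, and 164 of 173 alternative counts were 0 as well. The others were small: DESeq2 called 1 member in Eomes and 1 in Otx2 (arid5b-like.1 in both), and testing without the filter on low counts called 3 in Eomes and 3 in Otx2 (arid4b, arid5b-like.1 and chd2 in both), 2 in Irx3+Otx2 (arid4b and tet3), 1 in Foxb1+Eomes against Eomes (arid5b-like.1, of 1038 genes called) and 2 in Irx3+Otx2 against Irx3 (arid4b and tet3, of 1106). Between explants, limma on the mean per-cell log2(CPM + 1) called 1 member (setd1b) and 189 of 8898 genes, and leaving out each library in turn gave 0 to 1 members, the 1 being setd1b without BL 1, and 5 to 94 genes. Leaving out each cap library in turn gave 0 in all 13 cap comparisons. Counts over all genes moved far more: in Eomes from 28 to 861 with DESeq2, 1431 without the filter, 163 with limma on TPM and 0 with library number range as a term; in Foxb1+Eomes from 49 to 112, 302, 107 and 57; in Irx3+Otx2 from 18 to 292, 848, 111 and 7; and in Otx2 from 0 to 495, 1094, 6 and 0. The causes were not tested.

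Of 534 alternative values for 46 pairs of a named gene and a comparison, 515 kept direction and side of the threshold, 12 came under the threshold and 7 turned sign, none of the 7 on leaving out a library. With limma on TPM the log2 difference was 0.059 for ezh2 and 0.11 for setd8 in Eomes and 0.076 for setd8 in Otx2; with number range as a term it was 0.17 and 0.67 in Eomes and 0.16 and 0.71 in Otx2. Unscaled TPM moved the median of all genes by 0.66 in Eomes, 0.59 in Otx2 and 0.35 in Irx3+Otx2; the member medians were 0.74, 0.70 and 0.52. Removing a trend with gene length turned the member median from 0.05 to -0.11 in Eomes and from 0.07 to -0.12 in Otx2. A replicate block called 0 members in all 14 comparisons. It took the count over all genes from 28 to 42 in Eomes and from 0 to 80 between explants. Of 28 group pairs, 13 had a correlation of deviations between replicates over 0.1 (-0.243 to 0.766). The highest was that of Eomes with Otx2, and neither of these exceeded 0.1 with any other group. Foxb1+Eomes with Irx3 (0.550) and Irx3 with Lhx8 (0.524) came next. Replicate numbers may thus carry a shared origin for some groups, which the labels do not state. Ranking members by CPM in place of TPM kept 7 of the 10 highest.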
